A study of Mus musculus with 79 samples.

Results

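Pathogenic T helper 17 (Th17p) cells cultured with DHEA were compared with Th17p cells cultured with its solvent, methanol, in cells sorted at 1 division. The comparison took 10 of the 79 libraries of the series, 5 with DHEA and 5 with methanol, chosen by their labels for cell type, treatment and sort. Mouse T cells had been loaded with CFSE, a dye that is diluted at each cell division, and driven to the Th17p state with the cytokines IL-1b, IL-6 plus IL-23 in the presence of DHEA at 50 µM or of methanol. Cells at 1 division (Div.1) were then sorted for polyadenylated RNA. The labels describe 5 mice per condition and name no strain, genotype, age or culture time. Used for comparison were unsorted Th17p cells (Total) with DHEA or methanol, and non-pathogenic cells (Th17n, driven by TGFb and IL-6) at Div.1 with DHEA or methanol, 5 libraries a group. All cells were differentiated in culture, so the Th17p and Th17n states compared here did not form in an inflamed tissue.

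Th17 cells make the cytokines IL-17A, IL-17F and IL-22, and they drive both defence at mucosal surfaces and autoimmune inflammation. IL-23, acting through its receptor, turns them towards the pathogenic state, whereas TGFb and IL-6 give cells that also make IL-9 or IL-10. The labels give only the abbreviation DHEA, which usually stands for dehydroepiandrosterone, a steroid made by the adrenal gland and known to inhibit glucose-6-phosphate dehydrogenase. That enzyme opens the pentose phosphate pathway, which supplies NADPH for lipid synthesis and redox defence and pentoses for nucleotides.

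The authors' values were TPM, in which a transcript's abundance is scaled to its length and to the total of its library. All 10 libraries held between 9338 and 9653 genes at 1 TPM or more, and the depth of sequencing was unknown because the files hold no counts. Pairs within a group correlated across genes at 0.986 to 0.992 and pairs between the groups at 0.976 to 0.983. The first principal component of the 10 libraries, with 39% of the variance, parted the groups without overlap. The second, with 10.1%, set replicate 9 of DHEA apart from the other 9 libraries. Replicates are numbered here by their plate column, 6 to 10.

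The groups lay in different rows of the plate, methanol in row A and DHEA in row C, so row and treatment cannot be told apart by design. Deviations of libraries from their group means were taken over the whole plate. A set of 147 genes correlated above 0.8 with the first component of these deviations, which held 7.52% of their variance. Plate position was not used in that choice, but the level of these genes varied with plate column. Their mean log2(TPM + 1) was 5.94 ± 0.104 (SD, n = 5) with DHEA and 5.47 ± 0.182 with methanol, with no overlap (5.84 to 6.07 against 5.28 to 5.73). The Div.1 comparison and the differences of response were therefore computed again with this mean, the position score, as a term of the fit. This step was added after the data were seen. The responses within Total cells and within Th17n cells, their overlaps with Div.1 and the marker sums were not computed with it. With the score 3342 of the Div.1 calls below kept their direction, or 83.9%. Where the score ended a call of a gene named below, or moved that gene's value or the count of a list by over 1.5 times, the value stands beside the result. Of the 147 genes 80 were called higher with DHEA and 1 lower. Whether the score carries part of the DHEA response was not tested, so a call lost with it cannot be assigned to the plate.

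**Figure D1:**
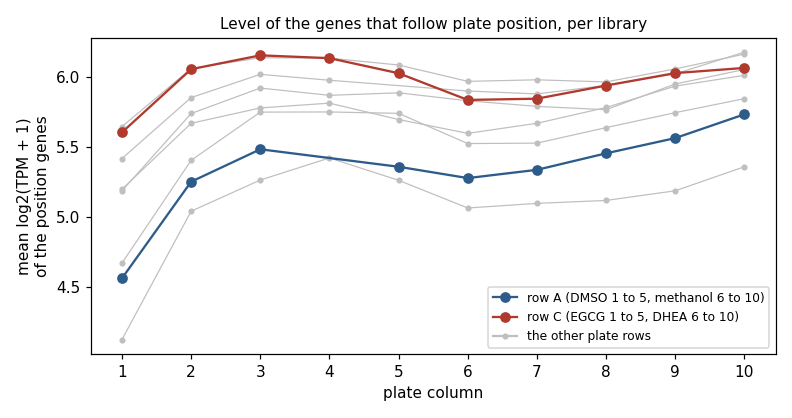
Mean log2(TPM + 1) of the 147 position genes in each library, plotted against plate column. Row C, which held the DHEA libraries in columns 6 to 10, lies above row A, which held the methanol libraries, in all columns plotted for both, and column 1 is the lowest of its row.

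Markers of other cells were low. The defining genes of CD4 T cells summed to 1582 to 1684 TPM with DHEA and 1456 to 1607 with methanol. Those of macrophages and dendritic cells reached at most 0.931 TPM, those of mast cells and basophils at most 0.157, and those of B cells at 0.571 to 2.28 TPM. Erythroid markers reached at most 2.41 TPM and the gamma delta T cell markers in the table at most 0.526 TPM. The 8 markers of CD8 T and NK cells summed to 16 to 29.2 TPM with DHEA and 11.4 to 14.2 with methanol, a difference of 8.43 TPM (exact permutation test, two-sided, adjusted p = 0.0556 over 7 lists, the smallest these groups allow being 0.00794 before adjustment). Nearly all of that sum was Cd8b1, at 14.3 to 26.9 against 9.44 to 12.3 TPM, while Cd8a averaged 0.192 and 0.0667 TPM and Prf1 1.26 and 1.31 TPM; these 3 genes were picked after their values were seen.

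DHEA changed a broad part of the transcriptome in modest steps. Of 10672 genes tested, 1934 rose and 2048 fell (limma, adjusted p under 0.05), which is 18.1% and 19.2%, or 37.3% in all. The median log2 change over all genes was 0.005. Changes of at least 2-fold were found for 154 genes that rose (1.44% of those tested) and 57 that fell (0.534%), 1.98% in all. Throughout, log2 changes are of TPM + 1, which understates the change of genes at low TPM. In bulk RNA of this kind, fewer cells making a transcript and less transcript per cell cannot be told apart.

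Some cytokine and cytokine receptor genes of Th17 cells, namely Il17f, Il22 and Il23r, were among the 15 largest decreases by the naming rule. Genes of the published pathogenic Th17 signature moved both ways, 8 of 15 rising and 3 falling. Il17f, the more abundant of the 2 IL-17 genes here, read 798, 1037, 1509, 975 and 1121 TPM in the methanol libraries and 235, 198, 136.5, 168 and 168 TPM in the DHEA libraries. No DHEA library came near the lowest methanol library, and the log2 change was -2.57 (SE 0.196, adjusted p = 2.35e-17). Il22, which acts on epithelial cells, read 78.4, 180, 234, 168 and 134 TPM with methanol and 18.9, 24, 22.6, 31.6 and 22.7 TPM with DHEA. Its groups did not overlap, and its log2 change was -2.61 (SE 0.412, adjusted p = 4.26e-07). Il17a, which lies near Il17f on chromosome 1 (mm10, 20730905 to 20734496 against 20777146 to 20790617), was low and scattered. It read 18.1, 17.5, 43.6, 32.5 and 54 TPM with methanol and 25.8, 8.63, 6.8, 18.3 and 14.7 TPM with DHEA. These groups overlapped, with a log2 change of -1.11 (SE 0.442, adjusted p = 0.0398), and the call was lost with the position score (adjusted p = 0.0687) and without any of 6 single libraries (adjusted p up to 0.134).

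Il23r, the receptor subunit specific to IL-23, read 17.1, 21.2, 19.7, 14.6 and 18.3 TPM with methanol and 2.14, 2.84, 1.07, 1.40 and 1.41 TPM with DHEA. The groups were far apart, with a log2 change of -2.82 (SE 0.188, adjusted p = 1.42e-19). Il12rb2, a subunit of the IL-12 receptor and near Il23r on chromosome 6 (67291318 to 67376188 against 67422932 to 67491855), read 31.7 to 33.3 TPM with methanol and 8.97 to 16 TPM with DHEA, a log2 change of -1.43. The receptor genes Il1r1, Il18r1 and Il18rap, all within 40225080 to 40551705 of chromosome 1, fell by 1.33, 0.61 and 1.29 on the log2 scale. Il1r1, through which IL-1b acts, averaged 2.79 ± 0.614 TPM (SD, n = 5) with methanol and 0.498 ± 0.209 with DHEA. Transcripts of receptors for IL-23 and IL-1b, both among the inducing cytokines, were thus lower.

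Transcription factors moved in both directions. Batf, a factor needed for Th17 differentiation, fell by 0.53 on the log2 scale (adjusted p = 5.91e-10), from 653 ± 28.2 to 452 ± 20.6 TPM. Tbx21, which encodes T-bet, the factor of Th1 cells and of pathogenic Th17 cells, read 45.4, 44.9, 37.8, 53.4 and 59.99 TPM with methanol and 18.4, 18.5, 16.3, 16 and 14.2 TPM with DHEA. Its groups were apart, with a log2 change of -1.47 (SE 0.183, adjusted p = 9.98e-10). Gata3, the factor of Th2 cells, went the other way and read 2.97, 4.17, 5.05, 4.93 and 4.27 TPM with methanol and 15.8, 20.1, 18.5, 15.1 and 18.6 TPM with DHEA. That is a log2 change of 1.83 (SE 0.138, adjusted p = 1.95e-17) with no overlap. Maf, Ahr, Foxp3 and Il10 averaged below 1 TPM in both groups. Of these only Maf passed the test, at 0.943 ± 0.235 TPM with methanol and 0.371 ± 0.163 with DHEA, and not with well A4 in its labelled group (adjusted p = 0.21). Ifng and Csf2 did not pass the filter on low values: Ifng was at 0 in every methanol library and in 3 of 5 DHEA libraries, and Csf2 averaged 0.297 TPM with methanol and 0.05975 TPM with DHEA.

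**Figure D2:**
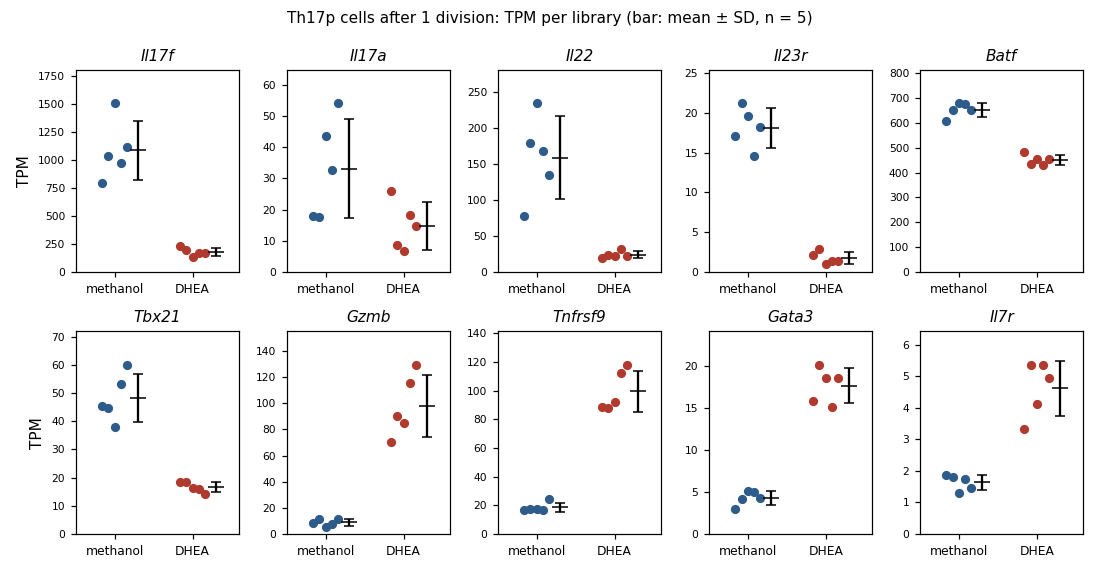
TPM of 10 immune genes in each library of Th17p Div.1 cells with methanol (blue) or DHEA (red), with the mean and SD beside each group of 5. The groups of Il17a overlap, and those of the other 9 genes do not.

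Of 17 core Th17 genes tested, 2 rose and 7 fell, with a median log2 change of -0.32 against 0.005 over all genes. The 2 that rose were Ccl20 and Il21, at 0.86 and 0.33, and neither was called with the position score (adjusted p = 0.119 and 0.0919); both are named after their values were seen. Of 15 tested genes of the published pathogenic Th17 signature, 8 rose and 3 fell, with a median of 0.30. The 3 that fell were Il22, Tbx21 and Ccl3, the last a chemokine at 42.4 ± 16.9 TPM with methanol and 7.35 ± 3.02 with DHEA. Those that rose include Gzmb, described below, Icos, a costimulatory receptor, at 0.61, and Il7r, the IL-7 receptor, at 1.08 on the log2 scale. Of 7 tested genes of the non-pathogenic signature, 1 rose and 3 fell, and none rose with the position score. Those that fell were led by Il1rn, which encodes the antagonist of the IL-1 receptor, at -2.44, and Il9, at -2.26. Of 8 Th1 genes 1 rose (none with the position score) and 4 fell, and of 4 Th2 genes 3 rose, the chemokine receptors Ccr4 and Ccr8 by 0.65 and 0.54.

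A second view used genes that part the 2 cell types in the DMSO libraries, which are not among the 10 compared but share the fit and its spread. Choice by smallest p favours genes of low spread, so their shares called cannot be set against those of all genes. Th17p DMSO lay in row A, as did Th17p methanol, and Th17n DMSO in row E. Of 200 genes higher in Th17p than in Th17n cells, 81 rose and 53 fell with DHEA, or 40.5% and 26.5%, with a median of 0.10. With the position score 75 rose and 54 fell, with a median of 0.08. Of 200 genes higher in Th17n cells, 91 rose and 20 fell, or 45.5% and 10%, with a median of 0.21. With the score 81 rose and 19 fell, with a median of 0.16. Genes of both cell types thus moved up and down, and both medians were above that of all genes.

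Several granule and serpin genes rose. Gzmb, the cytotoxic protease granzyme B, showed the largest increase by the naming rule. It read 8.14, 11.25, 5.48, 7.71 and 11.4 TPM with methanol and 70.6, 90.4, 85.2, 115 and 129 TPM with DHEA, a log2 change of 3.35 (SE 0.224, adjusted p = 1.42e-19) with no overlap. In the same 2 plate rows, the libraries with EGCG and DMSO read 4.54 to 15.7 and 5.90 to 15.25 TPM of Gzmb. Ctsw, a lymphocyte cathepsin, and Srgn, the proteoglycan that packs granules, rose by 1.24 and 0.55, so that 4 of 6 tested cytotoxic genes rose and none fell. The fourth, the lysosomal membrane gene Lamp1, was called at 1.46 but not with the position score (0.56, adjusted p = 0.29). Prf1, which encodes perforin, stayed near 1.3 TPM, with a log2 change of -0.01. Of the serpins, Serpinb9, an inhibitor of granzyme B, rose from 18.95 ± 2.25 to 61.5 ± 10.2 TPM, and Serpinb6b, also on chromosome 13, from 32.45 ± 3.89 to 103.5 ± 19.65 TPM. Serpine2, a secreted thrombin inhibitor, rose by 1.56 on the log2 scale. Timp1, a secreted inhibitor of matrix metalloproteinases, fell by 2.79 (adjusted p = 1.42e-19). It read 196, 348, 311, 291 and 306 TPM with methanol and 46.3, 48.7, 21.7, 50.8 and 43.05 TPM with DHEA.

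Receptors and ligands of the TNF superfamily, which give T cells costimulatory and survival signals, mostly rose: 12 of 19 rose and 1 fell, with a median of 0.63. Tnfrsf9, or 4-1BB, read 16.6, 17.6, 17.3, 16.4 and 24.4 TPM with methanol and 88.4, 87.8, 91.9, 112 and 118 TPM with DHEA. Its log2 change was 2.38 (SE 0.185, adjusted p = 5.66e-17), with no overlap. Tnfrsf4 (OX40) and Tnfrsf18 (GITR) were far more abundant and rose by 0.76 and 0.70, Tnfrsf4 from 693 ± 50.15 to 1177 ± 87.9 TPM. Tnfsf11, which encodes RANKL, rose by 2.19, or by 1.48 with the position score. Tnfrsf8, or CD30, was the member that fell, by 1.46. Of 17 genes induced by T cell receptor signals 12 rose and 1 fell, with a median of 0.51, among them the nuclear receptors Nr4a3 (1.65) and Nr4a1 (1.18). Il2 averaged 1534 ± 96.0 TPM with methanol and 2245 ± 590 with DHEA, with overlapping groups. Its log2 change of 0.51 (adjusted p = 0.0421) was lost with the position score (adjusted p = 0.11) and without any of 8 single libraries (adjusted p up to 0.145).

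Inhibitory receptors did not move together. Ctla4 read 54.7, 45.7, 48.4, 45.2 and 57.4 TPM with methanol and 120, 132, 143, 122 and 150 TPM with DHEA, a log2 change of 1.39 with no overlap. Cd160 and Cd274, the latter encoding PD-L1, rose by 1.52 and 0.83. Pdcd1, which encodes PD-1, fell by 0.62, from 121 ± 13.7 to 78 ± 9.27 TPM, and in all 5 of 8 tested genes of this kind rose and 1 fell. Of 11 genes typical of regulatory T cells, 6 rose and none fell, with a median of 0.56, among them Ctla4, Tnfrsf18 and Capg (0.56). Foxp3, which defines that lineage, read at most 0.679 TPM in any of the 10 libraries. Capg encodes a protein that caps actin filaments.

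Genes of naive and resting T cells also rose: 12 of 16, with none falling and a median of 0.56. Ccr7, the chemokine receptor that takes T cells into lymph nodes, read 302, 301, 277, 251 and 298 TPM with methanol and 675, 646, 569, 673 and 621 TPM with DHEA. The log2 change was 1.15 (SE 0.0838, adjusted p = 3.68e-18), with no overlap. Tcf7, which encodes the factor TCF-1, rose by 0.82, Id3, an inhibitor of helix-loop-helix factors, by 0.79, and Btg1, an anti-proliferative gene, by 0.69. Of 14 homing receptors 6 rose and none fell. Of 12 IL-2 and STAT5 targets 5 rose and none fell, led by Bcl2, the survival gene, which went from 21.5 ± 3.67 to 52.1 ± 6 TPM (log2 change 1.24). Of 14 S100, galectin and annexin genes 6 rose and 3 fell, with Anxa5, a phospholipid binding annexin, at 0.74, S100a11 at 0.95 and S100a6 at -0.84; both S100 genes encode calcium binding proteins.

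Targets of p53, the factor that halts the cell cycle after damage and other stress, rose, and genes of mitosis fell. Of 19 p53 targets 14 rose and none fell, with a median of 0.58. Cdkn1a, which encodes the cyclin-dependent kinase inhibitor p21, read 55.5, 34.6, 59.98, 32.8 and 54.6 TPM with methanol and 122, 133, 173, 107 and 159 TPM with DHEA. Its log2 change was 1.55 (SE 0.167, adjusted p = 1.29e-11), with no overlap. Plk2, a stress-induced kinase, and Trp53inp1, a p53 cofactor, rose by 1.6 and 1.18. Phlda3, an inhibitor of the kinase AKT, rose by 2.28, or by 1.61 with the position score. Apoptosis genes of both kinds were among those that rose, 10 of 16 with none falling: the pro-survival Bcl2 and Mcl1 (0.43) and the pro-death Pmaip1 (1.13) and Bbc3 (1.03).

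Among genes of G2 and mitosis 20 of 26 fell and 1 rose, with a median of -0.26. Plk1, a mitotic kinase, read 184, 200, 222, 200 and 210 TPM with methanol and 139, 128, 122, 128 and 120 TPM with DHEA, a log2 change of -0.67 (SE 0.0653, adjusted p = 4.94e-13) with no overlap. Cdc20, an activator of the anaphase-promoting complex, Tpx2, a spindle protein, and Ccnb2, a mitotic cyclin, fell by 0.61, 0.45 and 0.40. Of 25 genes of G1 and S phase 3 rose and 9 fell. Mcm7, part of the replicative helicase, fell by 0.19, and Pcna, the sliding clamp of DNA polymerase, rose by 0.23. None of 14 clustered histone genes was called by limma, and their median was -0.18 (-0.08 with the position score). Both groups had been sorted at the same division number by dye dilution. The purity of the sort and the time since the division are unknown here, and a part of either in these differences was not tested.

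The promoters of mitotic genes are known for 2 motifs, the CHR (TTTGAA) and the CCAAT box, shown here in capitals for Plk1 and Cdc20 because these led the group. Each window runs from 250 bases before to 50 bases after the transcript start, 5′ to 3′ on the gene's own strand (RefSeq, GRCm38.p6).
Plk1, chr7:122159185-122159484, plus strand: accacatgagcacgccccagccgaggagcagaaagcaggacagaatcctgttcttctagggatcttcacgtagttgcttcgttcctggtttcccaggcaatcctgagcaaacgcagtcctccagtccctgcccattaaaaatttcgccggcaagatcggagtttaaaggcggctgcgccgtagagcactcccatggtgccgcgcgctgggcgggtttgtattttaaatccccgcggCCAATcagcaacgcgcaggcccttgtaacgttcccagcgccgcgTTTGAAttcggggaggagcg
Cdc20, chr4:118437294-118437593, minus strand: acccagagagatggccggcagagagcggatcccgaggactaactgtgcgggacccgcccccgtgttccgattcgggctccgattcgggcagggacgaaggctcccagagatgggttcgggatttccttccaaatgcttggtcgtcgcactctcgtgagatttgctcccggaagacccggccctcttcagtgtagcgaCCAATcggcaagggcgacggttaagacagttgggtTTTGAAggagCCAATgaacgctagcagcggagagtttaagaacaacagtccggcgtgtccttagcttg
In Plk1 the CCAAT box starts 14 bases before the transcript start and TTTGAA at base 31 after it. In Cdc20 the CCAAT boxes start at -53 and -8 and TTTGAA at -18. Over both strands, TTTGAA was present in 15 of the 21 G2 and M genes that have a listed promoter (71.4%) and in 13.9% of the tested genes that have one. CCAAT was present in 18 of the 21 (85.7%) and in 43.5% of the tested genes. A match describes the sequence only and does not show that a factor binds there.

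Most genes of lipid synthesis fell. Scd1, which makes monounsaturated fatty acids, read 7.62, 8.81, 11.9, 11.6 and 11.3 TPM with methanol and 0.148, 0.199, 0.5, 0.221 and 0.768 TPM with DHEA. Its log2 change of -3.04 (SE 0.196, adjusted p = 3.67e-20) was among the largest decreases. The more abundant Scd2, also on chromosome 19, read 75.8, 77.5, 80.8, 89.7 and 88.0 TPM with methanol and 28.3, 22.7, 24.15, 28 and 31.65 TPM with DHEA, a log2 change of -1.58 with no overlap. The desaturases of polyunsaturated fatty acids, Fads2 and Fads1, fell by 1.98 and 0.68. Of 12 fatty acid synthesis genes 9 fell and none rose, with a median of -0.29.

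Of 19 genes of cholesterol synthesis 13 fell and none rose, with a median of -0.33. Fdps, which makes farnesyl diphosphate, read 460, 439, 450, 514 and 521 TPM with methanol and 265, 254, 263, 294 and 295 TPM with DHEA, a log2 change of -0.79 (SE 0.0701, adjusted p = 9.65e-15) with no overlap. Lss, which closes the sterol rings, Acat2, at the entry of the pathway, and Mvd, which makes isopentenyl diphosphate, fell by 0.84, 0.75 and 0.76. Insig1, a sterol sensor, fell by 0.45. Abcg1 and Abca1, which export sterols under the receptor LXR, were low and lower still with DHEA. Abcg1 went from 6.29 ± 0.952 to 3.46 ± 0.345 TPM and Abca1 from 0.684 ± 0.166 to 0.103 ± 0.0725 TPM. Lpcat3, an LXR target that remodels phospholipids, fell by 0.63. Of 8 LXR targets 3 rose and 3 fell, with a median of 0.19. Those that rose were Smpdl3a (0.49), Abca7 (0.35) and Apoe (0.31). Cd5l, a lipid regulator known from non-pathogenic Th17 cells, read 14.2, 13.6, 19.1, 14.7 and 12.1 TPM with methanol and 3.18, 2.44, 1.89, 1.10 and 4.19 TPM with DHEA, a log2 change of -2.20 (adjusted p = 2.32e-09). Of 15 cholesterol genes with a listed promoter, 1 held the sterol response motif TCACNCCAC on either strand (6.67%, against 1.33% of tested genes).

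Genes of the pentose phosphate pathway, whose first enzyme dehydroepiandrosterone is known to inhibit, moved by small steps: 6 of 12 fell and 1 rose, with a median of -0.12. G6pdx, which encodes glucose-6-phosphate dehydrogenase, read 67.35, 75.5, 66, 67.5 and 73.5 TPM with methanol and 62.5, 60.8, 60.4, 66.9 and 61.3 TPM with DHEA. These groups overlapped, with a log2 change of -0.16 (SE 0.0585, adjusted p = 0.0233; 0.0501 with the position score), and the call was also lost without any of 3 single libraries (adjusted p up to 0.0842). Pgd, the next NADPH-making enzyme, read 244, 254, 231, 251 and 277 TPM with methanol and 204, 195, 187, 197 and 202 TPM with DHEA, a log2 change of -0.35 (SE 0.056, adjusted p = 6.35e-07) with no overlap. Tkt (transketolase) fell by 0.19. Taldo1 (transaldolase) fell by 0.11, a call lost without any of 4 single libraries (adjusted p up to 0.143). Pgm2, a phosphoglucomutase that also acts on pentoses, was the member that rose, by 0.40. Of 9 other genes of NADPH supply 5 fell and none rose. Idh1, the cytosolic isocitrate dehydrogenase, moved far more than the pentose genes and read 27, 21.8, 21.3, 26.7 and 27.5 TPM with methanol and 9.40, 8.91, 8.12, 9.45 and 10.3 TPM with DHEA. Its log2 change was -1.33 (SE 0.119, adjusted p = 1.24e-14). Mthfd1 and Mthfd2, folate enzymes that also make NADPH, fell by 0.26 and 0.34.

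Most glycolytic genes rose while genes of the TCA cycle fell. Of 20 glycolysis genes 13 rose and 1 fell (10 and 2 with the position score), with a median of 0.21, led by Gpi1 (0.47), Tpi1 (0.53) and Pgk1 (0.40), which encode enzymes of the pathway. Slc16a3, the lactate exporter MCT4, rose more and read 9.49, 7.04, 9.21, 9.47 and 16 TPM with methanol and 29, 36.7, 41.6, 43.8 and 33.7 TPM with DHEA, a log2 change of 1.79 (adjusted p = 1.12e-07). Pgam1 did not pass the test, at 1556 ± 55.9 and 1646 ± 68.5 TPM, except with TPM rescaled (adjusted p = 0.0347). Of 14 genes induced by hypoxia outside glycolysis 11 rose and none fell, with a median of 0.54. Bnip3, a mitochondrial protein of mitophagy, read 29.9, 26.4, 20.9, 28.5 and 38.9 TPM with methanol and 93.0, 104, 105, 125 and 116 TPM with DHEA. Its log2 change was 1.89 (SE 0.138, adjusted p = 4.33e-18), with no overlap. Its relative Bnip3l, Ankrd37, an ankyrin repeat protein, and Higd1a, a mitochondrial hypoxia gene, rose by 0.79, 0.88 and 0.56. Of 19 TCA cycle genes 14 fell and none rose, each by less than 0.4 on the log2 scale, with Dlst at -0.36, Idh3b at -0.29, Ogdh at -0.27 and Fh1 at -0.25, all of them enzymes of the cycle. In the respiratory chain 8 of 20 complex I genes fell and none rose (9 and 1 with the position score), with Ndufs8 at -0.34, and 7 of 22 genes of complexes III to V fell and 1 rose (7 and 2 with the position score), with Uqcrc1 of complex III at -0.27. Mitochondrially encoded genes were not analysed here. Of 18 genes of fatty acid oxidation 7 fell and 1 rose, the latter not with the position score.

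**Figure D3:**
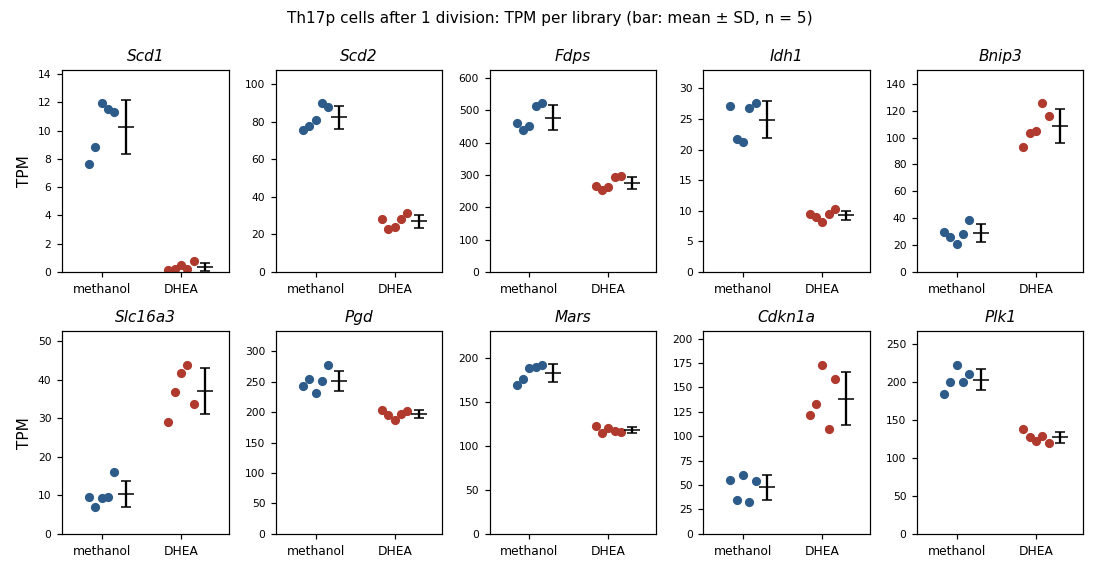
TPM of 10 genes of lipid, NADPH and sugar metabolism, protein synthesis and the cell cycle in each library of Th17p Div.1 cells with methanol (blue) or DHEA (red), with the mean and SD of each group of 5. Bnip3, Slc16a3 and Cdkn1a are higher with DHEA, the other 7 are lower, and no gene shows overlapping groups.

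The core of the hypoxia response element is ACGTG, in capitals below in the promoters of 3 genes that rose, drawn on the same windows and build.
Bnip3, chr7:138909457-138909756, minus strand: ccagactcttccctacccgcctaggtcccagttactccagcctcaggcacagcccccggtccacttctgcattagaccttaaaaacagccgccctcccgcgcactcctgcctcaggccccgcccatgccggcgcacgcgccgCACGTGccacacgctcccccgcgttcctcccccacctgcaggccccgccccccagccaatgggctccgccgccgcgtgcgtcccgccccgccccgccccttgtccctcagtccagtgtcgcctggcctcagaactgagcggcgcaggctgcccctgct
Slc16a3, chr11:120948817-120949116, plus strand: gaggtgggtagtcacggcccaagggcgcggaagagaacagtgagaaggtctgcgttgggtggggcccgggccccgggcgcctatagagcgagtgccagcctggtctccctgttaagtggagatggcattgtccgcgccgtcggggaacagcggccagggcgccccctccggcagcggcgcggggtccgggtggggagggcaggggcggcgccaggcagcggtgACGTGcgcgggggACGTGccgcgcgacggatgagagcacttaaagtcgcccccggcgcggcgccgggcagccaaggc
Ankrd37, chr8:45999801-46000100, minus strand: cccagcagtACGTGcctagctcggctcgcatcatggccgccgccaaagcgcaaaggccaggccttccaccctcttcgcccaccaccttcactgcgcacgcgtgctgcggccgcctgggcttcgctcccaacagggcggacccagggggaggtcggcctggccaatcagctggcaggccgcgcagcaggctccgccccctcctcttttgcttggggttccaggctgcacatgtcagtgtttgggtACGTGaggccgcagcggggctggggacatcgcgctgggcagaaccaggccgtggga
In Bnip3 the matches on the 2 strands overlap as CACGTG, from 108 bases before the transcript start, and in Slc16a3 they start at -27 and -14. Over both strands ACGTG was present in 10 of 13 hypoxia genes with a listed promoter (76.9%) and in 14 of 20 glycolysis genes (70%), against 30.4% of the tested genes.

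Most genes of tRNA charging and ribosome assembly fell. All 12 cytosolic aminoacyl-tRNA synthetases tested, the enzymes that load amino acids onto tRNA, were called lower, with a median of -0.41, and 11 of the 12 showed no overlap between groups, against 23.5% of all genes. Mars, for methionine, read 170, 177, 189, 190 and 192 TPM with methanol and 123, 115, 121, 118 and 116 TPM with DHEA, a log2 change of -0.63 (SE 0.0473, adjusted p = 1.8e-17). Those for threonine (Tars), tyrosine (Yars) and alanine (Aars) fell by 0.58, 0.56 and 0.55. Atf4, the factor that activates these genes when amino acids are short, fell by 0.38, from 375 ± 51.8 to 285 ± 14 TPM. The list of ATF4 and its targets was mixed, 4 rising and 7 falling of 21, with Aldh18a1, of proline synthesis, at -0.47 and Ddit4, an inhibitor of mTORC1, at 1.15 (0.68 with the position score). Of 13 genes of serine and one-carbon metabolism 8 fell and none rose, with Shmt2, the mitochondrial serine enzyme, at -0.36. Of 22 Myc targets and ribosome biogenesis genes 15 fell and 1 rose (16 and none with the position score), with Rrp12 and Nop2, both of ribosome assembly, at -0.44 and -0.35. Dohh and Dhps, which make the hypusine residue of the translation factor eIF5A, fell by 0.64 and 0.69, among 5 that fell and 1 that rose of 12 polyamine genes. Of 13 heat shock genes 7 fell and 1 rose, with the chaperones Hspa8 and Hspd1 at -0.32 and -0.38, and of 18 genes of the unfolded protein response 6 fell and 3 rose (9 and 1 with the position score), with Herpud1, of protein disposal at the endoplasmic reticulum, at -0.56. Of 24 ribosomal protein genes 12 rose and 2 fell by at most 0.25, and only 5 rose when TPM were rescaled.

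The element bound by ATF4 and C/EBP factors, TGATGNAA, is in capitals below, read on either strand, in 3 of the synthetase genes.
Tars, chr15:11399609-11399908, minus strand: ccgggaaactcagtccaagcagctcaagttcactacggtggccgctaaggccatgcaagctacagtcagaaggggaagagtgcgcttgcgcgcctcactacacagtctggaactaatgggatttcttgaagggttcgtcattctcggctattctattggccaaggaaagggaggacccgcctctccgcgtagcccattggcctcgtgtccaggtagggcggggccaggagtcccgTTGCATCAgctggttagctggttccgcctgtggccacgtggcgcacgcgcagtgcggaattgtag
Yars, chr4:129189653-129189952, plus strand: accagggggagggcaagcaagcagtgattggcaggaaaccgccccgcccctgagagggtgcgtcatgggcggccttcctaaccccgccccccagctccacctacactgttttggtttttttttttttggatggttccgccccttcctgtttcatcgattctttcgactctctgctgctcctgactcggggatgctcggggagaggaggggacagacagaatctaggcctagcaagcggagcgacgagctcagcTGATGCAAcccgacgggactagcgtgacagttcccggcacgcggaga
Aars, chr8:111033592-111033891, plus strand: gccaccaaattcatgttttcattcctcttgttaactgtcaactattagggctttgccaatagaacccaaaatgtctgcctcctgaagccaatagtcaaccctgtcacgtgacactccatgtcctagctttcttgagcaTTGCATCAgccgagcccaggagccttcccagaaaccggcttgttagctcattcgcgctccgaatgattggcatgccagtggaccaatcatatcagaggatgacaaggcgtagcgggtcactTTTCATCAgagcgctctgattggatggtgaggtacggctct
It starts at -15 in Tars, at base 4 in Yars, and at -112 and base 10 in Aars. It was present in 5 of 8 synthetase genes with a listed promoter (62.5%) and in 2.79% of the tested genes.

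Of 11 steroid enzymes and receptors 4 rose and none fell, which is 36.4% called. Over all genes 37.3% were called, 18.1% higher and 19.2% lower. Cyp11a1, which makes pregnenolone from cholesterol, read 1.71, 0.638, 0.828, 0.453 and 0.914 TPM with methanol and 3.75, 3.01, 4.19, 4.92 and 6.55 TPM with DHEA, a log2 change of 1.52 (SE 0.161, adjusted p = 6.72e-12) with no overlap. Hsd11b1, which activates glucocorticoids, and Nr3c1, their receptor, rose by 0.93 and 0.41. Esr1, an oestrogen receptor, was too low to be tested, at 0.0067 and 0 TPM with DHEA and methanol. Of 9 targets of the glucocorticoid receptor 2 rose and none fell, Ddit4 and the phosphatase Dusp1 (0.89). Of 14 targets of NRF2, the factor of the oxidant response, 6 rose and none fell, with a median of 0.14. Nqo1, its classic target, averaged 0.878 ± 0.824 and 0.772 ± 0.618 TPM and was not called. Txn1 (thioredoxin) rose by 0.16, while Gclm, of glutathione synthesis, and Gsr, glutathione reductase, rose by 0.74 and 0.51 but not with the position score (adjusted p = 0.0532 and 0.273). The metallothioneins Mt2 and Mt1, which bind zinc, fell by 1.15 and 0.45 with overlapping groups, and Mt1 was not called with the position score (adjusted p = 0.0643), in a fit of the 2 groups alone (0.0715) or without replicate 8 of DHEA or of methanol (0.0911 and 0.0914).

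Among the largest changes outside these groups, H2-Ab1, the beta chain of an MHC class II molecule, read 3.38, 2.47, 0.704, 4.18 and 6.99 TPM with methanol and 17, 22.1, 20.6, 21.9 and 23.4 TPM with DHEA, a log2 change of 2.44 (adjusted p = 2.76e-12). Its partner H2-Aa averaged 0.0949 and 0.0402 TPM, the class II activator Ciita 0.0478 and 0.0142, and Cd74, the invariant chain, 4.89 and 4.10 TPM with DHEA and methanol, genes chosen after their values were seen. Tesc, a calcium binding protein, rose by 2.40, or 1.52 with the position score. Ecm1, a secreted matrix protein, Mgarp, a mitochondrial protein, Ms4a4b, a T cell membrane protein, Sdc4, a heparan sulfate proteoglycan, and Slfn1, a growth regulator of T cells, rose by 2.10, 2.04, 1.97, 1.92 and 1.73. Ildr1, an immunoglobulin-like receptor, fell by 3.07, from 9.60 ± 3.65 to 0.215 ± 0.211 TPM. Tmem138, a membrane protein of cilia, Stra6, a receptor for the vitamin A carrier, Stom, a membrane scaffold, and Mrrf, a mitochondrial ribosome factor, fell by 2.78, 2.43, 1.81 and 1.67. Near or below the 37.3% of all genes were the lists of AHR targets (1 rose of 7), interferon response (3 rose and 2 fell of 19), PPAR targets (2 rose, or 1 with the position score, and 1 fell of 8) and NF-kB targets (3 rose and 1 fell, or 3 with the position score, of 13). Earlier lists below that share were glucocorticoid receptor targets (22.2% called), metallothioneins (33.3%), steroid enzymes and receptors (36.4%) and complexes III to V (36.4%). Little above it were complex I (40%), IL-2 and STAT5 targets (41.7%), homing receptors (42.9%), NRF2 targets (42.9%) and fatty acid oxidation (44.4%). These shares join both directions, and of all genes 18.1% were higher and 19.2% lower. All calls were lower in the complex I and metallothionein lists. They were all higher in the lists of IL-2 and STAT5 targets, homing receptors, NRF2 targets, steroid genes and glucocorticoid receptor targets. TGFb targets (5 rose, or 3 with the position score, and 1 fell of 12), chemokine ligands (3 rose and 1 fell of 8), lysosome and autophagy genes (11 rose, or 7 with the position score, and 3 fell of 20), and the sterol uptake and metallothionein lists (2 rose and 2 fell of 9, and 2 fell, or 1 with the position score, of 6) were mixed or small. In the list of matrix genes and serpins 4 rose and 1 fell of 8.

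**Figure D4:**
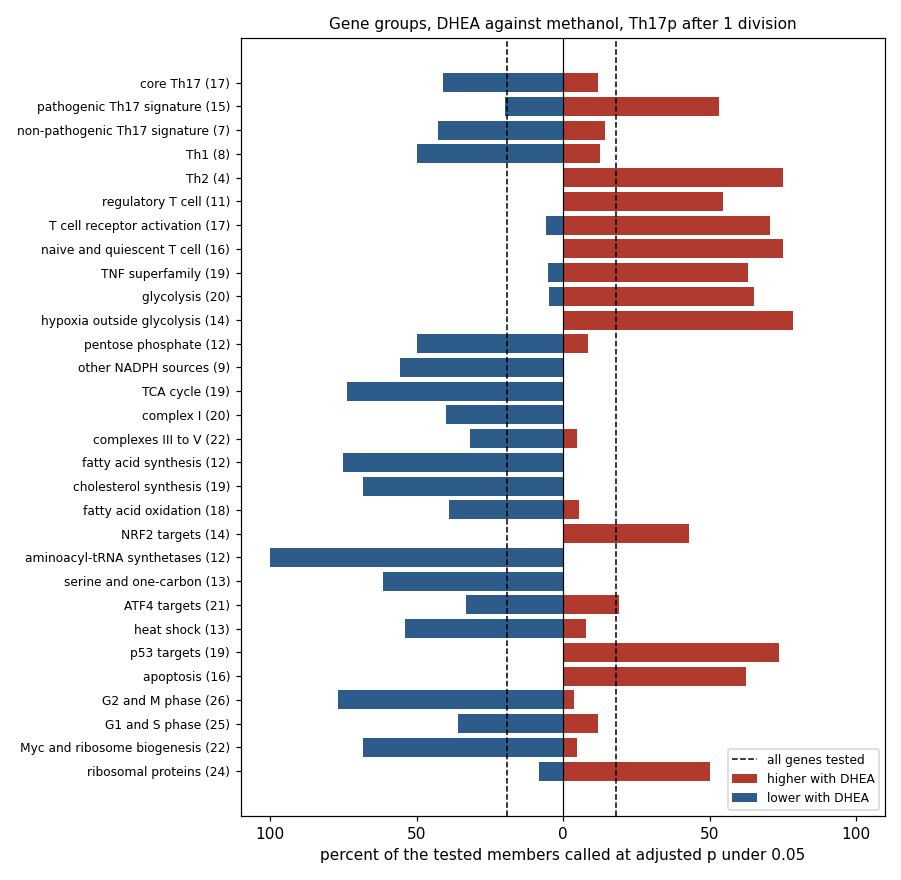
Percent of the tested members of 30 gene lists that were called higher (red, to the right) or lower (blue, to the left) with DHEA, with the number tested in brackets and dashed lines at the 18.1% and 19.2% of all genes. All 12 synthetases are on the lower side, and the hypoxia, p53, naive T cell and Th2 lists have no member called lower.

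The DHEA response of the unsorted Th17p cells was compared with that of the Div.1 cells. Unsorted cells can include cells at 1 division, and both sorts probably come from the same cultures, which the labels do not tie by number. The plate rows differ as well, since Total cells lay in rows B (methanol) and D (DHEA). The comparison therefore cannot isolate an effect of division number. In the Total cells 5094 genes were called, 47.7% of those tested, with 20.9% higher and 26.8% lower, and 2901 genes were called in the same direction in both sorts, or 72.9% of the Div.1 calls and 56.9% of the Total calls. A further 44 were called in opposite directions. The difference between the responses was itself called for 1058 genes (9.91%), 598 (5.6%) with a higher response in Div.1 cells and 460 (4.31%) with a lower one. Rescaling turned that split to 487 and 676, the position score to 647 and 537, and a replicate block on the plate column to 942 and 645. The largest difference by the naming rule was that of Il17a, which fell by 1.11 in Div.1 cells and by 3.66 in Total cells, from 82.0 to 7.83 TPM (difference 2.54, SE 0.625, adjusted p = 0.0043). Il1rn, Il9 and Timp1 also fell further in Total cells, by 1.28, 1.59 and 0.93 more, whereas for Il17f (0.71, adjusted p = 0.0921), Il22 (1.42, adjusted p = 0.113) and Il23r (0.43, adjusted p = 0.343) the difference did not pass the test. Lum, a matrix proteoglycan, fell by 2.27 in Total cells and was not called in Div.1 cells (-0.40, difference 1.87, adjusted p = 2.06e-07). Tfpt and Ccne2, the latter a cyclin of S phase entry, differed by 2.03 and 1.84. The histone genes Hist1h2bg and Hist1h2bn, the zinc finger gene Zfp869 and the apolipoprotein L gene Apol7e were called higher with DHEA in Total cells but not in Div.1 cells, with differences of -1.57, -1.45, -1.49 and -1.31.

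The non-pathogenic cells gave 3910 called genes at Div.1, 36.6% of those tested, with 22.1% higher and 14.6% lower. The 2 cell types shared 1909 genes called in the same direction, or 47.9% of the Th17p calls and 48.8% of the Th17n calls, and 238 were called in opposite directions. The response differed between them for 1695 genes (15.9%), 693 higher (6.49%) and 1002 lower (9.39%) in Th17p cells. Rescaling moved the split to 872 and 857, and the position score to 415 and 1219. In this comparison the plate rows differ too, since Th17n cells lay in rows E (methanol) and G (DHEA). Il17f fell in both types but further in Th17p cells, by 2.57 against 1.34 (difference -1.23, adjusted p = 0.000863). Il23r fell by 2.82 and 1.42 (difference -1.39, adjusted p = 9.33e-05), but it averaged only 2.07 TPM with methanol and 0.0843 with DHEA in Th17n cells, where the log2(TPM + 1) scale understates its fall, so the type with the larger fold cannot be read from this difference. For Il17a (-1.11 against -2.49) and Il22 (-2.61 against -1.13) the difference did not pass the test, with adjusted p = 0.126 and 0.0718. Tbx21 fell in Th17p cells and was not called in Th17n cells (-0.25, difference -1.21, adjusted p = 0.000422).

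The cell types also parted in lipid genes. Of 19 cholesterol synthesis genes, 13 fell and none rose in Th17p cells, whereas 6 rose and 2 fell in Th17n cells, and the difference between responses was called for 15, all lower in Th17p cells (17 with the position score). Lss was at -0.84 in Th17p and -0.01 in Th17n cells. In fatty acid synthesis 9 of 12 responses were lower in Th17p cells and 1 was higher (9 and 0 with the position score). Scd1 was at -3.04 against -1.56. Idh1 fell by 1.33 in Th17p cells and stood at 0.00 in Th17n cells. Of 12 synthetases 12 fell in Th17p and 7 in Th17n cells, with 7 differences called. Gzmb, which averaged 0.236 and 0.0283 TPM in Th17n cells with DHEA and methanol, gave a difference of 3.09 (SE 0.317, adjusted p = 1.13e-10); near 0 the log2(TPM + 1) scale hides fold changes, so this is a difference in level and does not show that Th17n cells failed to respond. The other large differences on the higher side were Ctdp1 (3.01), Sap30 (2.6) and Smap1 (2.41), which with the position score were 2.14, 1.53 and 1.5. On the lower side they were Stra6 (-3.14), which fell in Th17p and rose by 0.71 in Th17n cells, S100a6 (-2.28), Nkg7 (-2.27), a granule protein that rose by 2.21 in Th17n cells and stood at -0.05 in Th17p cells, and Batf3 (-2.01), a relative of Batf.

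Other groups gave similar counts of calls in the 3 settings, though single members differed. Of 26 G2 and M genes 20 fell in Th17p Div.1, 21 in Th17p Total and 18 in Th17n Div.1 cells, and Plk1 was at -0.67, -0.69 and -0.59. Hypoxia genes rose for 11, 11 and 8 of 14, with Bnip3 at 1.89, 1.55 and 1.59, and p53 targets for 14, 13 and 12 of 19. The response itself differed between cell types for 5 of the 14 hypoxia genes. In Th17p cells 4 of these were higher and 1 lower (2 and 1 with the position score). Between sorts the response differed for 5 of the 19 p53 targets, Cdkn1a among them (0.69). Tnfrsf9 was at 2.38, 2.70 and 2.05 and Gata3 at 1.83, 1.94 and 1.55, and neither difference of response was called for these 2 genes (adjusted p from 0.378 to 0.787). A difference that misses the threshold does not show that the responses are equal.

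**Figure D5:**
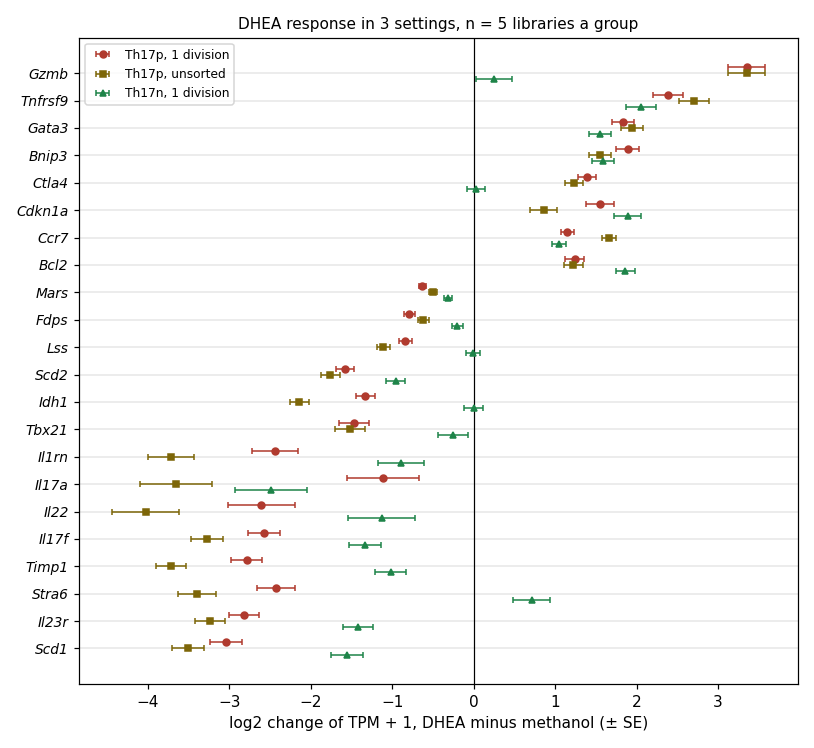
Log2 change of TPM + 1, DHEA minus methanol, with its SE, for 22 genes in Th17p Div.1 (circles), unsorted Th17p (squares) and Th17n Div.1 cells (triangles), 5 libraries a group. Ctla4 lies near 0 only in Th17n cells, Gzmb is too low there for a change to show, and Stra6 lies below 0 in both Th17p settings and above 0 in Th17n cells.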

How the data were processed

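The authors deposited 1 table of TPM for 20465 gene symbols in 79 libraries. Trimmomatic, kallisto and mm10 are named in the submitters' processing notes; how transcripts were joined to symbols is not given in the sources used here. TPM carry no depth, so no counting error can be given. Of the symbols, 19761 matched a gene name in the annotation, and positions were matched by symbol.

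Log2(TPM + 1) was fitted with limma 3.58.1 (R 4.3.3) on 16 group means over 78 libraries, which share 1 estimate of the spread, for the 10672 genes at 1 TPM or more in at least 4 libraries. Tests were two-sided, with Benjamini-Hochberg adjustment over those genes and a threshold of 0.05, and differences of response were contrasts of the same fit. The library of well A4, whose label breaks the layout of its row, was left out. Motifs were searched on both strands. On simulated data 72% of shifts of 0.5 and 94% of shifts of 1 on the log2 scale were recovered, with 2.92% of calls false. The simulation held far fewer changed genes than were called here, independent noise for each gene and no plate effect. Its share of false calls therefore cannot be carried over to these data. The genes named singly were the 15 with the largest increase and the 15 with the largest decrease among called genes whose higher group averaged 5 TPM or more and whose groups did not overlap, passing over predicted genes, pseudogenes and ribosomal protein copies, the 4 largest differences of response in each direction, a list of genes always given, and up to 4 called members of each list. Members and lists were chosen with earlier results of these data known. Whether the 5 libraries of a group come from 5 mice rests on the labels. A few genes of the lists are not reported singly here.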

Additional observations from a re-analysis of the deposited data

Results flagged for a closer look

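In 20 of the 320 groups of 5 libraries checked, 1 library lay far from the others (gap over range above Dixon's 0.71), where chance gives about 1 in 20. With methanol, replicate 10 stood apart for Il10 (0.177 TPM), Tnfrsf9 (24.3), Tpi1 (1672), Pgk1 (1456), Slc16a3 (16), Gclm (3.91) and Tesc (20.9), and replicate 8 for Mthfd1 (187), Hspd1 (1677) and the summed erythroid markers (2.41). Replicate 6 of methanol stood apart for Sap30 (1.78), replicate 7 for Lum (68.4) and replicate 9 for Pcna (495). With DHEA, replicate 8 stood apart for Timp1 (21.7), replicate 7 for Lpcat3 (39.8) and Aars (61.7), replicate 9 for Csf2 (0.299) and Ctdp1 (10.4), replicate 6 for Esr1 (0.0336) and replicate 10 for Tmem138 (4.22).

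Among the genes named for the size of their change or difference, and those always given, the DHEA response differed between Div.1 and unsorted Th17p cells for 19 by the test of the difference. Given as log2 response in Div.1 minus that in Total cells, it was above 0 for Il17a (2.54), Tfpt (2.03), Lum (1.87), Ccne2 (1.84), Il9 (1.59), Il1rn (1.28), Stom (1.01), Stra6 (0.97), Timp1 (0.93), Il1r1 (0.74), Cdkn1a (0.69), Pgd (0.25) and Pgam1 (0.24). It was below 0 for Hist1h2bg (-1.57), Zfp869 (-1.49), Hist1h2bn (-1.45), Apol7e (-1.31), Ms4a4b (-0.94) and Ecm1 (-0.75).

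Between Th17p and Th17n cells at Div.1 the response differed for 26 genes of the same selection, which leaves out genes named only as members of a list. Gzmb, Il23r, Batf3 and Stom were near 0 in Th17n cells, and Maf in Th17p cells, where log2(TPM + 1) understates a change. Given as Th17p minus Th17n, it was above 0 for Gzmb (3.09), Ctdp1 (3.01), Sap30 (2.6), Smap1 (2.41), Tesc (2.33), H2-Ab1 (1.89), Tnfsf11 (1.67) and Phlda3 (1.62). With the position score the last 2 were 0.47 and 0.48 (adjusted p = 0.274 for both) and Tesc was 0.83 (adjusted p = 0.00139). It was below 0 for the cytokine, receptor and factor genes Il9 (-1.62), Il1rn (-1.55), Il23r (-1.39), Il17f (-1.23), Il2 (-1.21), Tbx21 (-1.21), Batf3 (-2.01) and Maf (-0.53), for the lipid genes Scd1 (-1.48) and Fads2 (-1.24), and for Stra6 (-3.14), S100a6 (-2.28), Nkg7 (-2.27), Timp1 (-1.76), Stom (-1.53), Mrrf (-1.49), Ms4a4b (-1.49) and Ildr1 (-1.43).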

How the results depend on the processing

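The count of called genes was 3970 with a pseudocount of 0.1, 3855 without the filter, 4139 with TPM rescaled, 3426 in a fit of the 2 groups alone, 3721 with well A4 in its labelled group and 3733 with the position score. Leaving out each library gave 3616 to 3846 (1718 to 1899 higher, 1846 to 1987 lower). The difference between sorts gave 820 to 1170 calls on leaving out each library (452 to 732 higher, 353 to 533 lower), and that between cell types 1481 to 1941 (638 to 704 higher, 777 to 1296 lower). For cell types, calls higher in Th17p cells fell to 415 with the position score, and calls lower were 662 in a fit of the 4 groups alone. Plate columns did not meet the rule for paired libraries: 4 of 25 same-column correlations of deviations were over 0.1 (range -0.002 to 0.208). Still, 22 of the 25 matched their own column better than any other, as did all 10 between sorts. Libraries of the same column thus share structure that the main fit leaves out, and its source was not tested. A replicate block on the column gave 2178 higher and 2212 lower calls, 942 and 645 for sorts (598 and 460 without it) and 887 and 1264 for cell types (693 and 1002 without it).

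Of 150 named genes tested, the position score ended 8 calls and made 1. Without a filter Il17a and Il2 were no longer called (adjusted p = 0.0717 and 0.0759), and with well A4 Il2 and Maf were not (0.192 and 0.21). Signs turned for genes that were not called. Nqo1 ranged from -0.17 to 0.22 on leaving out each library (-0.03 with a pseudocount of 0.1) and Nkg7 from -0.19 to 0.18. Marker sums, DHEA minus methanol in TPM, ranged from 103 to 141 (CD4 T cells), 6.31 to 9.62 (CD8 T and NK cells), 0.129 to 0.468 (B cells), 0.00632 to 0.205 (macrophages), 0.0118 to 0.0511 (mast cells), -0.378 to 0.161 (erythroid cells) and 0.0257 to 0.134 (gamma delta T cells). The causes of these shifts were not tested. Without counts, the depth behind genes of low TPM is unknown.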
